A study of Saccharomyces cerevisiae with 24 samples.

Results

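The ORFs nearest to the ends of the 32 chromosome arms of *Saccharomyces cerevisiae* were followed across 3 strains and 2 media. Systematic names number the ORFs of an arm outward from the centromere, so the 8 ORFs with the highest number on each arm (256 in all) were taken as the outermost, and 36 of them were left out by name because they belong to the *AAD*, *PAU*, *PHO*, *SNO*, *SNZ* or *THI* groups or are *ADH4*, *ARN2*, *FRE2*, *FET4* or *IMD2*. This left 220 of the 6692 ORFs counted. The rule uses names and places only, not measured values. mRNA libraries were made from the strains WT, H3L126M and H3L126H in YPD, a fermentative medium with glucose, and in YPEG, which offers ethanol and glycerol as the carbon sources, with 4 libraries for each strain and medium (24 in all). The parent of the 3 strains is BY4741 (S288C background, MATa), which carries his3Δ1, leu2Δ0, met15Δ0 and ura3Δ0. WT also shared the rebuilt *HHT2* locus from which the mutants were made. In each mutant, leucine 126 of histone H3 is replaced (by methionine in H3L126M and histidine in H3L126H) in both *HHT1* and *HHT2*, and the sources used here name 1 strain for each genotype, so a strain and any change it picked up elsewhere cannot be told apart.

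Yeast chromosomes end in short repeats of C and A on the strand read inward, followed on many arms by Y' elements, which encode a helicase, and then by an X element. Silencing by the Sir proteins spreads inward from the repeats through deacetylated histones H3 and H4, and genes placed there are weakly transcribed. The regions next to the ends hold gene families that have been copied from arm to arm, among them sugar transporters and maltases, flocculins (cell wall adhesins), the *COS* membrane proteins and the helicases of the Y' element.

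Sequences were read from the RefSeq genome of build R64, on which the authors' build sacCer3 is also based. The outermost bases of the left arm of chromosome VII, where *COS12* is the outermost ORF, are shown because they mark the end from which the ORFs were ranked. Capitals mark the run of telomeric repeat of 34 bases at chrVII:1-60.
left end of chromosome VII: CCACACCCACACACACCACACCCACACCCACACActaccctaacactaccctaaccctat
The 200 bases before the start codon are given for 6 ORFs whose values are described further on. Capitals mark matches to TATAAA or TATATAA on either strand, letters found in TATA boxes (the longer motif can overlap the shorter where TATATAAA occurs). They lie at chrVII:2590-2789 (plus strand, *COS12*), chrVII:5112-5311 (plus, YGL262W), chrXV:1072924-1073123 (minus, *FDH1*), chrXIII:919888-920087 (plus, *ERR3*), chrI:9017-9216 (minus, *SEO1*) and chrXVI:22738-22937 (plus, *SAM3*).
COS12 upstream: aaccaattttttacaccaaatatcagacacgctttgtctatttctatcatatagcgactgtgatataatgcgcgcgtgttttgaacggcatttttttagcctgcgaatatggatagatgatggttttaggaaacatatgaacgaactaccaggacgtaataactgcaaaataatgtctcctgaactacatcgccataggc
YGL262W upstream: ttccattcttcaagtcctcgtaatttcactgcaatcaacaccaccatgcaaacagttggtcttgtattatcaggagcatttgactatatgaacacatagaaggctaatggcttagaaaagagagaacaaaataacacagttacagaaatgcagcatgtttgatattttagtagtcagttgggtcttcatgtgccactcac
FDH1 upstream: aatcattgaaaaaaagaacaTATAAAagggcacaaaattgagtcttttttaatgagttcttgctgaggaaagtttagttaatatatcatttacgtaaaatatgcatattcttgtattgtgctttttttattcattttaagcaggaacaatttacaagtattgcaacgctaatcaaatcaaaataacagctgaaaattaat
ERR3 upstream: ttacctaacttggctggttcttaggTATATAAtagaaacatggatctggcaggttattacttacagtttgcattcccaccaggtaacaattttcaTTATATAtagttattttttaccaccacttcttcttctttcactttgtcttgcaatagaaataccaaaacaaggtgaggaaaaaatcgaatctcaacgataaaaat
SEO1 upstream: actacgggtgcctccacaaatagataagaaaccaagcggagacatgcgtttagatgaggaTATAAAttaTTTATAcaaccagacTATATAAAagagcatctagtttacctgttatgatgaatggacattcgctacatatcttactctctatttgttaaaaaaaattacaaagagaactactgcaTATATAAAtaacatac
SAM3 upstream: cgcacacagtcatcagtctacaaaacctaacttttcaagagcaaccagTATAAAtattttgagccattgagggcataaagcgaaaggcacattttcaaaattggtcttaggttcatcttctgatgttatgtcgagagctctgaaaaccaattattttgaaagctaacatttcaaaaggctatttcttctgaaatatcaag
Of 182 outermost ORFs with such a window, 113 (62.1%) held at least 1 of these motifs, beside 2643 of all 6007 ORFs (44%). *SEO1* held 6 matches, some of which overlap, and *COS12* and YGL262W held none.

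Many of the outermost ORFs are copies of each other, which sets how far their counts can be told apart. Pairs of maltase and chaperone genes illustrate this. *HSP32* and *HSP33*, which encode proteins of the Hsp31 family, differ at 4 of 714 coding bases, and the maltase genes *MAL12* and *MAL32* at 8 of 1755. The stretches of 60 coding bases that hold the most differences are shown, with the differing bases in capitals (chrXVI:11938-11997 plus, chrXV:1079148-1079207 minus, chrVII:1076797-1076856 plus and chrII:805549-805608 plus).
HSP32 coding: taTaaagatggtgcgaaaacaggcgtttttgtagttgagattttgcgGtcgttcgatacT
HSP33 coding: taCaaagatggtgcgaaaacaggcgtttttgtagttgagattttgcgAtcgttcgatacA
MAL12 coding: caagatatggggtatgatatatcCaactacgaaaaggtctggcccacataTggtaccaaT
MAL32 coding: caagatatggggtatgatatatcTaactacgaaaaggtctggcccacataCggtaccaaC
*COS2* and *COS3* have identical coding sequences of 1140 bases. The pairs *VTH1* and *VTH2*, *SOR1* and *SOR2*, and *DDI2* and *DDI3* each differ at 1 base, *HXT15* and *HXT16* at 2 and *FEX1* and *FEX2* at 8. A read from such a pair can fit both places, and the setting with which the authors counted reads that fit several places is not given in the sources used here. In WT cells in YPD *COS2* had a normalized count (scaled to a common library size) of 54.8 ± 11.4 and *COS3* 69.7 ± 10.5 (mean ± SD, n = 4).

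Uniqueness was taken as the share of the 50-bp windows of an ORF that occur once in the genome. Its median was 82.6% in the 183 outermost ORFs with a RefSeq gene and 100% in all ORFs. Of these 183, 63 (34.4%) were less than 20% unique, beside 3.36% of all ORFs, and 28 had no unique window. The other 37 have no RefSeq gene, and 35 of those have no name either. In all, 112 outermost ORFs carry a standard name. The 183 lay a median of 10676 bp from the chromosome end (52 to 34086 bp), 179 of them within 30 kb, and 36 overlapped an annotated telomeric region, on 19 arms.

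The outermost ORFs had few reads. Their median was 67.2 raw counts per library, compared with 655 for all ORFs and 544 for the ORFs in places 9 to 16 of the same arms. No ORF was left out by name from places 9 to 16 or from all ORFs, here and in the medians further on. By place, the median was 16.6 counts in place 1, 17.3 in place 4, 96.2 in place 6, 229 in place 8 and 362 in place 9, just outside the choice. No outermost ORF was left out for low counts, but 62 had a mean of at most 10 counts, 18 had at most 3 counts in every library and 4 had none. The filter of the test passed 159 of the 220 in the YPD fit, 166 in the YPEG fit and 170 in the fit of all libraries, and 50 passed in no fit. An ORF that is silent in WT can pass this filter only through a strain in which it is high, so the counts and medians given for tested ORFs describe those ORFs and are not support for a direction. The same limit holds for tests of single ORFs whose WT counts lie around or below the minimum count of 10. Among them are YGL262W, YOL162W, YMR321C, YHR219W and *FDH1* in YPD and *ERR3* and *HSP32* in YPEG. In the comparison of the media the limit holds for *COS4* and *HSP33*, whose WT counts in YPD are that low.

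**Figure D1:**
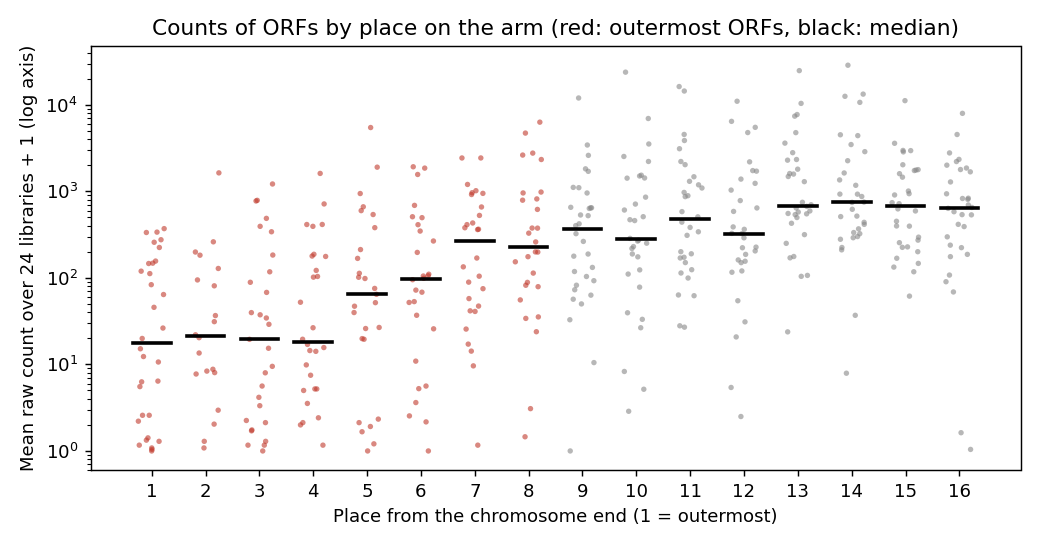
Mean raw count of each ORF over the 24 libraries (1 added, log axis) by its place from the chromosome end. Red points are the 220 outermost ORFs, grey points the 256 ORFs of places 9 to 16, and black bars medians, which are 16.6 in place 1, 229 in place 8 and 362 in place 9.

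Library totals ran from 8570789 to 15577958 counts, and the outermost ORFs made up 0.494% to 0.811% of them. Among genes specific to a cells, *STE2* had 622 to 8792 counts, *STE6* 1217 to 5938, *MFA1* 150 to 2224 and *MFA2* 573 to 4414. Among genes specific to alpha cells, *STE3* had 39 to 245, MF(ALPHA)1 0 to 381, MF(ALPHA)2 29 to 118 and *SAG1* 218 to 685, so the ranges of both kinds overlapped. *MET17* (the gene of met15Δ0) and *URA3* had no count and *LEU2* at most 1. The WT libraries fell into pairs, replicates 1 and 2 against 3 and 4. Over all ORFs the chi-square per ORF between libraries, which is near 1 for sampling noise alone, was 3.90 and 9.73 within the pairs and 49.6 to 81.2 across them in YPD, and 10.7 and 21.0 within and 50.2 to 72.3 across in YPEG. Between libraries of a mutant it ran from 3.83 to 72.5. *HXK1*, a hexokinase gene repressed by glucose, had 11745, 10570.2, 1905 and 1351 normalized counts in WT replicates 1 to 4 in YPD. Comparisons with WT were therefore also run without either pair. Beside those values, the part of this split in the results was not tested.

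In YPD, more outermost ORFs were higher than lower in both mutants. In H3L126M 33 of the 159 tested were higher and 9 lower than in WT by the quasi-likelihood test of edgeR at an adjusted p below 0.05. That is 20.8% and 5.66% of them, beside 7.83% and 6.74% of all tested ORFs. In H3L126H 55 were higher and 19 lower (34.6% and 11.9%, beside 24.5% and 20.1%). Changes of at least 2-fold numbered 12 rises and 1 fall in H3L126M and 22 rises and 4 falls in H3L126H. The shares of all tested ORFs called at that size are not set beside these, so they are numbers of calls only. Called or not, the tested outermost ORFs had log2 fold changes from -0.46 to 1.60 in H3L126M and -0.77 to 1.45 in H3L126H (5th to 95th percentile). Those of all tested ORFs ran from -0.39 to 0.68 and from -0.60 to 0.90. The median log2 fold change of the tested outermost ORFs was 0.20 in H3L126M and 0.31 in H3L126H, that of places 9 to 16 was 0.055 and 0.12, and that of all tested ORFs 0.0054 and 0.013. Without WT replicates 1 and 2 the counts were 41 higher and 8 lower in H3L126M and 57 and 15 in H3L126H, and without replicates 3 and 4 they were 39 and 16, and 56 and 26. The shares of all tested ORFs called in these refits are not set beside them, so they are numbers of calls only. In these bulk samples, a change in the number of cells that express a gene and a change in RNA per cell cannot be told apart.

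In YPEG, too, more outermost ORFs were higher than lower. In H3L126M 56 of 166 were higher and 7 lower (33.7% and 4.22%, beside 17.1% and 19% of all tested ORFs), with 19 rises and no fall of at least 2-fold. In H3L126H 62 were higher and 11 lower (37.3% and 6.63%, beside 18.7% and 17.7%), with 17 rises and 3 falls of that size. The counts of 2-fold changes again stand without the shares of all tested ORFs. Called or not, the tested outermost ORFs had log2 fold changes from -0.30 to 1.29 in H3L126M and -0.55 to 1.32 in H3L126H (5th to 95th percentile). Those of all tested ORFs ran from -0.67 to 0.82 and from -0.53 to 0.78. Without WT replicates 1 and 2 the counts were 60 higher and 9 lower in H3L126M and 62 and 11 in H3L126H, and without replicates 3 and 4 they were 36 and 7, and 49 and 11. Here, too, the shares of all tested ORFs called in the refits are not set beside the counts. With all libraries the medians were 0.32 and 0.34, those of places 9 to 16 0.092 and 0.093, and those of all tested ORFs 0.0072 and -0.0041. The mutants share their WT libraries within a medium, so their values are given side by side and their likeness is not counted as a result.

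**Figure D2:**
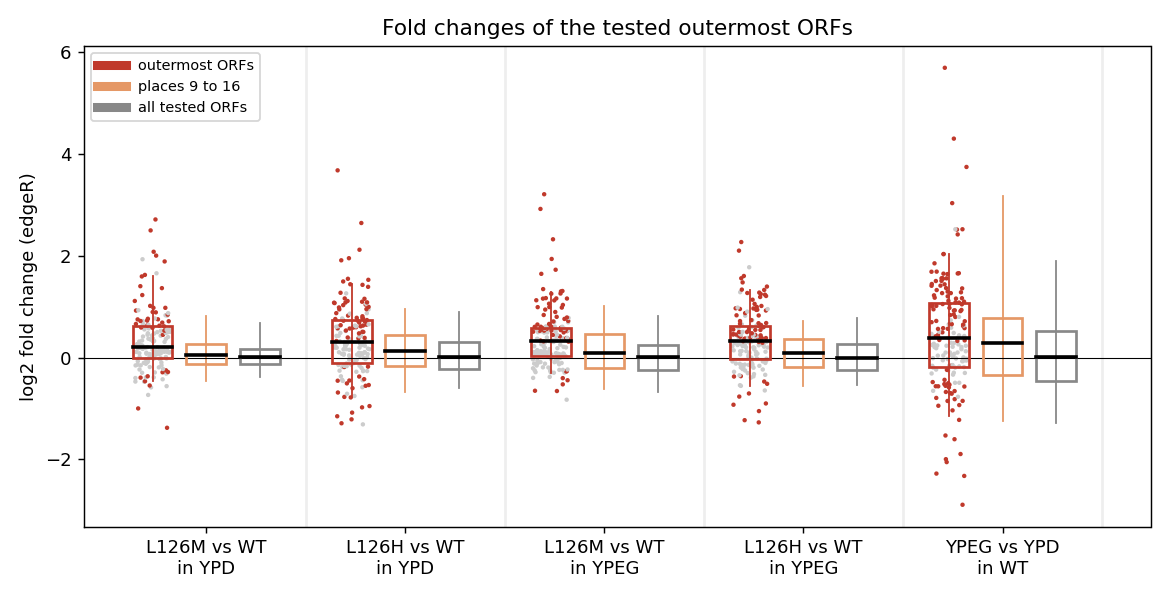
Log2 fold changes (edgeR) in 5 comparisons for the tested outermost ORFs (points, red where called at an adjusted p below 0.05), with boxes from the 25th to the 75th percentile, lines from the 5th to the 95th and black bars at the median for the outermost ORFs, places 9 to 16 and all tested ORFs. The outermost ORFs have medians of 0.20, 0.31, 0.32, 0.34 and 0.39. The highest point of the medium comparison, YAL066W, had 0 counts in all WT libraries in YPD, so its fitted value depends on a prior count.

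Low counts moved with this pattern. Among tested ORFs elsewhere in the genome with a mean under 100 counts, the median log2 fold change was also above 0, at 0.21 in H3L126M and 0.29 in H3L126H in YPD, and at 0.23 and 0.24 in YPEG. For the outermost ORFs under 100 counts it was 0.48, 0.58, 0.50 and 0.45 in the same order. With a mean of 100 counts or more, the outermost ORFs had 0.085, 0.075, 0.19 and 0.31, and other ORFs -0.0089, -0.014, -0.014 and -0.032. In YPD 16% of the well counted outermost ORFs were higher and 9.88% lower in H3L126M, beside 6.4% and 7.54% of the other well counted ORFs. In H3L126H the shares were 33.3% and 18.5%, beside 23.7% and 22.5%. In YPEG 34.7% of them were higher in H3L126M and 43.6% in H3L126H, beside 16.7% and 18.3% of the others, and 6.93% and 8.91% were lower, beside 21.1% and 19.5%. The part of the low counts in the pattern was not tested.

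**Figure D3:**
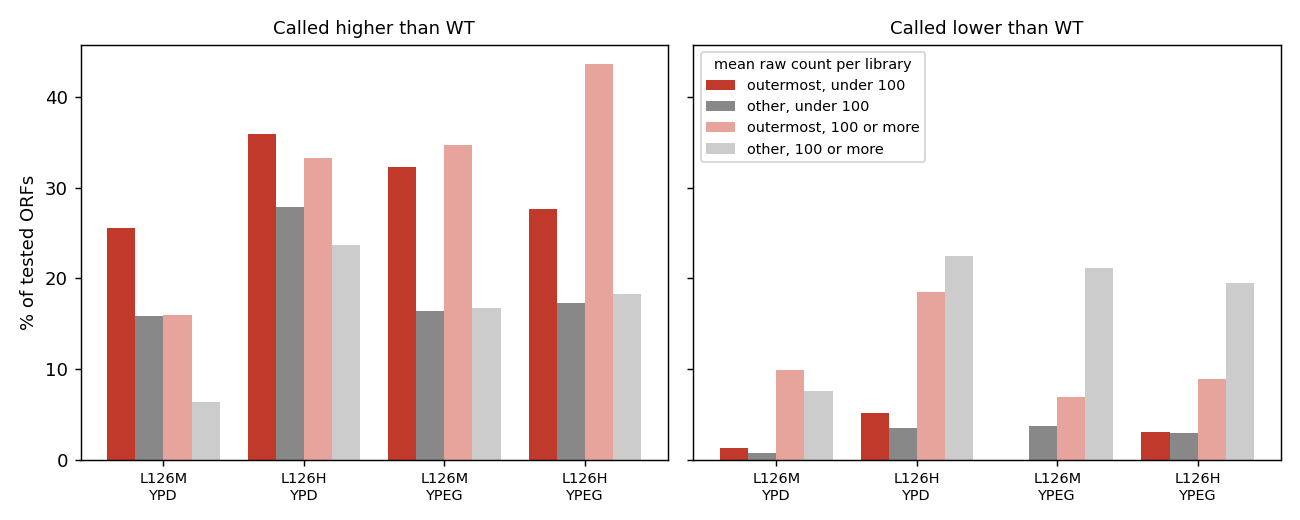
Percentage of tested ORFs called higher (left) or lower (right) than WT in each mutant and medium, split by mean raw count per library (under 100, or 100 and more) for the outermost ORFs (red shades) and all other ORFs (greys). In H3L126M in YPEG the shares higher are 32.3% and 34.7% for the outermost ORFs and 16.4% and 16.7% for the others.

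The chromosome also moved with the result in H3L126H, where the ORFs of chromosomes II, III, V and XVI were higher as a whole, with a median of 0.36 in YPD and 0.34 in YPEG. These medians pool the chromosomes listed, and none is given for a chromosome alone. The outermost ORFs of these chromosomes had medians of 0.49 and 0.52, and those of the other chromosomes 0.22 and 0.26. With the median of each chromosome removed, 47 outermost ORFs were higher and 21 lower in YPD, and 47 and 6 in YPEG. The shares of all tested ORFs called after this removal are not set beside these counts. In H3L126M all tested ORFs of these chromosomes had medians of 0.0019 in YPD and -0.0068 in YPEG, and their outermost ORFs 0.19 and 0.22.

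Within the 8 places, the outer ORFs had the larger medians in YPD. Places 1 to 4 had 0.44 in H3L126M and 0.54 in H3L126H, and places 5 to 8 had 0.11 and 0.075. In YPEG the values were closer, at 0.34 and 0.39 for the outer places and 0.28 and 0.30 for the inner. The outer places hold the lowest counts, so place and level were not separated by these medians. Higher ORFs lay on 21 arms in H3L126M and 25 in H3L126H in YPD, and on 28 and 27 arms in YPEG, and lower ORFs lay on 7, 13, 5 and 9 arms.

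**Figure D4:**
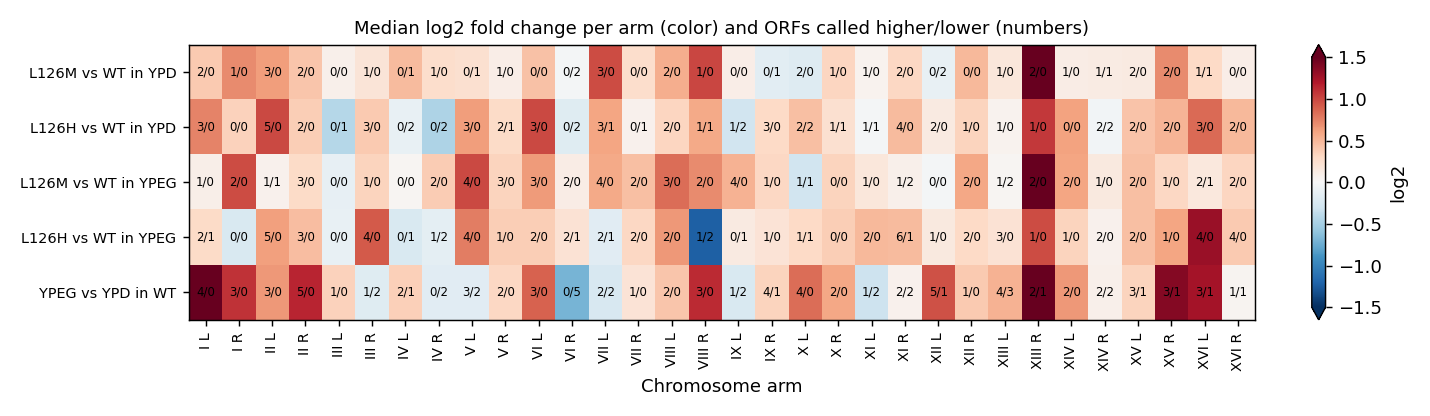
Median log2 fold change of the tested outermost ORFs on each of the 32 arms (color, cut at 1.5 either way) in 5 comparisons, with the number of ORFs called higher and lower in each field. Arms with higher ORFs number 21, 25, 28 and 27 in the comparisons of a mutant with WT, and 30 between the media in WT.

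Of the 36 ORFs inside annotated telomeric regions, 26 could be tested in YPD and 24 in YPEG. In YPD 5 rose in H3L126M and 12 in H3L126H, in YPEG 7 and 9, and none fell in any of the 4 comparisons. These are 19.2%, 46.2%, 29.2% and 37.5% of those tested, beside 7.83%, 24.5%, 17.1% and 18.7% of all tested ORFs. The shares of all tested ORFs that fell were 6.74%, 20.1%, 19% and 17.7% in the same order. Some that rose in H3L126H in YPD lie on chromosomes II (YBL113C and YBL111C), V (YEL077C and *YRF1-2*) and XVI (YPR204W), which are among those higher as a whole in that strain. The part of that shift in these counts and in the sums below was not tested. Of the 36, 34 were less than 20% unique, so a value cannot be assigned to a single copy. Added together, the 36 ORFs had 1538 ± 187 normalized counts in YPD in WT (mean ± SD, n = 4). H3L126M had 2178 ± 152 and H3L126H 2538 ± 248, and neither overlapped WT. In YPEG the sums were 2591 ± 300.2, 3116 ± 143 and 3295 ± 123, and here H3L126M overlapped WT and H3L126H did not. The 8 *YRF1* genes, which encode the Y' helicase, summed to 256 ± 60.9 in WT in YPD, with overlapping libraries in both mutants, and in YPEG to 304 ± 30.6 in WT, 432 ± 50.4 in H3L126M and 418 ± 44.0 in H3L126H, without overlap.

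YHL050C (chrVIII:445-3311, minus strand, 15.2% unique) is the outermost ORF of the left arm of chromosome VIII and is described here after its values were seen. It had 109.9, 95.6, 119.9 and 136 normalized counts in the WT libraries in YPD. In H3L126M the values were 315, 252, 226 and 266. Every mutant library lay above every WT library (log2 fold change 1.23, SE 0.13, edgeR adjusted p = 2.27e-05). In H3L126H it rose by 1.27 on the log2 scale (adjusted p = 8.23e-06), and in YPEG by 0.90 and 0.72 in H3L126M and H3L126H (adjusted p = 1.73e-05 and 0.000126). YHR219W (chrVIII:560173-562047), at the right end of the same chromosome and with no unique window, had 19.6, 6.83, 13.0 and 9.39 in WT, 42.8, 36.9, 40.3 and 58.0 in H3L126M and 39.0, 29.0, 62.5 and 48.6 in H3L126H in YPD. The WT libraries were all lower than those of both mutants (log2 fold change 1.89, SE 0.33, edgeR adjusted p = 0.00148 in H3L126M and 1.91, SE 0.33, adjusted p = 0.000508 in H3L126H). Smaller rises of 1.16 and 1.33 on the log2 scale were called in YPEG.

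Neighboring ORFs at the left end of chromosome VII rose in both mutants and both media. *COS12* (chrVII:2790-3932, plus strand, 100% unique) belongs to the *COS* family of membrane proteins, which promote the sorting of other membrane proteins to the vacuole. Its WT libraries in YPD had 72.9, 106, 99.3 and 57.4 normalized counts, those of H3L126M 231, 255, 269 and 237 and those of H3L126H 135, 143, 107 and 105. The H3L126M libraries were all above the others, and the H3L126H libraries overlapped WT at a single pair of values (1.59, SE 0.18, edgeR adjusted p = 4.26e-05 and 0.60, SE 0.18, adjusted p = 0.0182 on the log2 scale). In YPEG WT had 22.7, 20.3, 12.8 and 12.6, H3L126M 142, 95.2, 126 and 149 and H3L126H 88.5, 54.7, 63.6 and 82.1. All mutant libraries exceeded all WT libraries, by 2.92 (SE 0.25, adjusted p = 2.47e-06) and 2.10 (SE 0.26, adjusted p = 7.07e-05). The effect was larger in YPEG than in YPD in both mutants, by 1.34 (adjusted p = 0.00418) in H3L126M and 1.55 (adjusted p = 0.0024) in H3L126H. H3L126M was above H3L126H by 1.0 in YPD and 0.82 in YPEG (adjusted p = 0.000677 and 0.00579).

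YGL262W (chrVII:5312-5839, plus strand, 100% unique) is the next ORF inward and has no standard name. It had only 3, 6, 7 and 11 raw counts in WT in YPD and 33, 38, 59 and 33 in H3L126M, so the limit of the filter given above applies. The groups did not overlap (log2 fold change 2.5, SE 0.32, edgeR adjusted p = 0.000144). In H3L126H the log2 fold change was 1.5 (adjusted p = 0.00456), and in YPEG it was 1.94 in H3L126M and 1.40 in H3L126H (adjusted p = 0.00013 and 0.0015), each without overlap. On the left arm of chromosome XV the unnamed YOL162W (chrXV:10119-10766) also rose in YPD, from 4, 5, 13 and 4 raw counts in WT to 39, 25, 27 and 27 in H3L126M and 27, 21, 16 and 25 in H3L126H. Its fold changes were 2.08 and 1.95 (log2, adjusted p = 0.00126 and 0.000831), and neither mutant passed the test in YPEG. YMR321C (chrXIII:917579-917896, 31.2% unique) rose in H3L126M in YPD (2.00, adjusted p = 0.0241) and YPEG (1.73, adjusted p = 0.00316), from 0 to 8 raw counts in WT in YPD. The YPD call of YMR321C was lost without H3L126M replicate 2, 3 or 4 (log2 fold changes 1.97, 1.85 and 1.97, adjusted p = 0.0504, 0.0632 and 0.0513) and without WT replicates 1 and 2 (1.49, adjusted p = 0.0524), and kept without H3L126M replicate 1 (2.18, adjusted p = 0.0267).

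**Figure D5:**
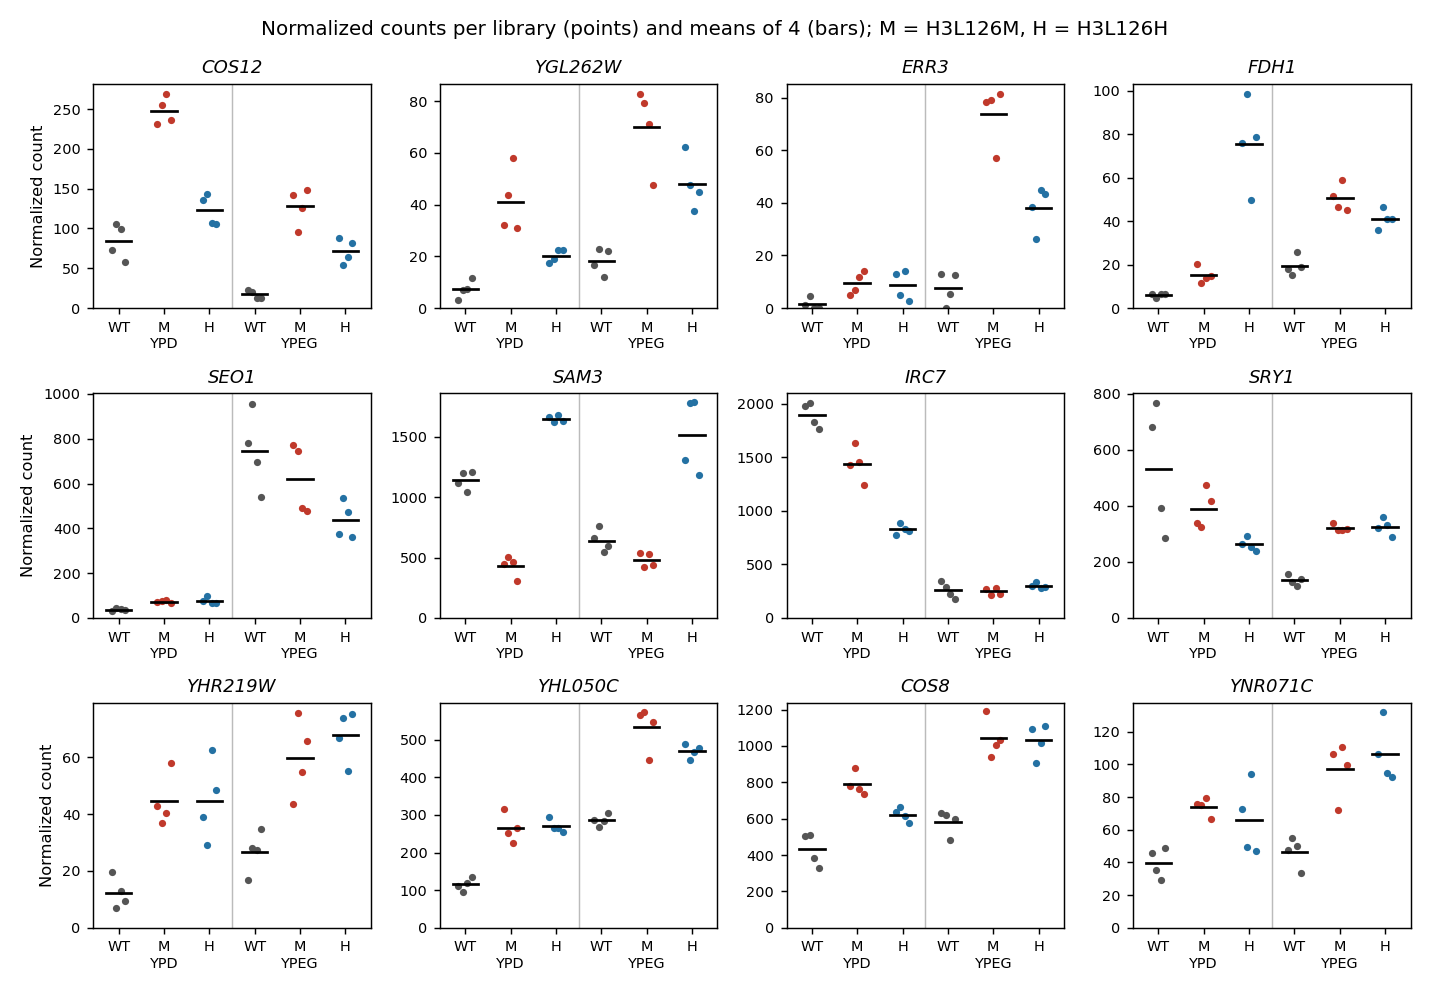
Normalized counts of 12 outermost ORFs in each of the 24 libraries (points) and group means (bars, n = 4), with axes that start at 0. WT, H3L126M (M) and H3L126H (H) are given for YPD on the left and YPEG on the right of each panel. *COS12* has means of 83.9, 248 and 123 in YPD and 17.1, 128 and 72.2 in YPEG.

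*ERR3* (chrXIII:920088-921401, plus strand, 35.9% unique) is an enolase-related gene near the right end of chromosome XIII, and its copies *ERR1* and *ERR2* lie at the ends of chromosomes XV and XVI. In YPEG it had 11, 0, 6 and 12 raw counts in WT, 70, 89, 56 and 94 in H3L126M and 48, 29, 69 and 56 in H3L126H. Both mutants were clear of WT (log2 fold change 3.21, SE 0.41, edgeR adjusted p = 6.09e-05 in H3L126M, and 2.27, SE 0.42, adjusted p = 0.00117 in H3L126H). In YPD the counts were too few for a firm size, with 1, 4, 0 and 0 in WT, 5, 6, 12 and 15 in H3L126M and 12, 4, 12 and 2 in H3L126H. The 3 copies added together gave 10.8 ± 4.69 normalized counts in YPEG in WT (mean ± SD, n = 4), beside 86.6 ± 6.87 in H3L126M and 46.9 ± 7.30 in H3L126H. *HSP32*, which has no unique window, rose in YPEG from 10, 9, 13 and 10 raw counts in WT to 21, 22, 25 and 27 in H3L126M and 52, 35, 50 and 44 in H3L126H. The 3 groups did not overlap, and the log2 fold changes were 0.99 and 1.60 (adjusted p = 0.00519 and 0.000171). Together with its near copy *HSP33* the sum was 31.95 ± 12.4, 52.5 ± 3.40 and 73.7 ± 14.8 in the 3 strains. *HSP32* lies on chromosome XVI, which is among those that were higher as a whole in H3L126H.

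*FDH1* (chrXV:1071793-1072923, minus strand), which encodes formate dehydrogenase, had the largest rise of the tested outermost ORFs in H3L126H in YPD. Its libraries had 6, 4, 6 and 6 raw counts in WT, 21, 10, 14 and 16 in H3L126M and 70, 78, 42 and 60 in H3L126H. The strains did not overlap, with H3L126H highest (log2 fold change 3.68, SE 0.29, edgeR adjusted p = 1.12e-06), while H3L126M was at a log2 fold change of 1.36 (adjusted p = 0.0168). In YPEG the WT level was 19.4 ± 4.40 normalized counts (mean ± SD, n = 4), that of H3L126M 50.4 ± 6.37 and that of H3L126H 41.1 ± 4.34, and the rises were 1.35 and 1.06 (adjusted p = 0.000362 and 0.00197). The effect of H3L126H was smaller in YPEG than in YPD (YPEG minus YPD -2.58 on the log2 scale, adjusted p = 5.04e-05). Only 15.8% of *FDH1* is unique, and its WT counts in YPD lay below the minimum count of the filter. YPL277C (chrXVI:15405-16868, 62.1% unique), on an arm of chromosome XVI, had 46.8, 59.2, 52.9 and 35.5 in WT and 143, 150.3, 131 and 126 in H3L126H in YPD. Its H3L126H libraries were all higher (log2 fold change 1.55, SE 0.20, edgeR adjusted p = 5.54e-05). *DSF1* (chrV:19589-21097, 41.5% unique), a putative mannitol dehydrogenase gene on chromosome V, rose in H3L126H in YPEG from 77.1 ± 21.5 to 225 ± 23.6 normalized counts (log2 1.56, adjusted p = 0.000118), and by 1.17 in H3L126M (adjusted p = 0.000783). Chromosomes V and XVI are among those that were higher as a whole in H3L126H.

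*SAM3* (chrXVI:22938-24701, plus strand, 100% unique), which encodes the permease for S-adenosylmethionine, moved in opposite directions in the mutants. In YPD WT had 1113, 1198, 1045 and 1207 normalized counts, H3L126M 450.1, 503, 461 and 308 and H3L126H 1659.8, 1625, 1680.2 and 1634. No group overlapped another, with H3L126M lowest (log2 fold change -1.38, SE 0.12, edgeR adjusted p = 3.68e-06), while H3L126H was highest (0.58, SE 0.11, adjusted p = 0.00111). In YPEG the changes were -0.40 (adjusted p = 0.0433) and 1.25 (adjusted p = 5.70e-05). The mutants differed by -1.96 in YPD and -1.65 in YPEG (H3L126M minus H3L126H, adjusted p = 2.30e-07 and 1.15e-06). *DLD3*, which encodes a 2-hydroxyglutarate transhydrogenase, had 3844 ± 216, 2728 ± 275 and 5756 ± 238 normalized counts in WT, H3L126M and H3L126H in YPD. It was called lower in H3L126M and higher in H3L126H (log2 fold changes -0.46 and 0.63, adjusted p = 0.000624 and 2.21e-05). *SAM3* lies on chromosome XVI and *DLD3* on chromosome V, and most ORFs of both chromosomes shifted upward in H3L126H. How much of the H3L126H rises of *SAM3* and *DLD3* came from that general shift was not tested.

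Falls of at least 2-fold in H3L126H in YPD were found for *IRC7*, *FDC1*, YDL241W and YGR290W. *IRC7* (chrVI:264204-265226), which encodes a cysteine desulfhydrase, had 1978, 2004, 1829 and 1767 normalized counts in WT and 775, 883, 831 and 816 in H3L126H. All H3L126H libraries were lower (log2 fold change -1.15, SE 0.09, edgeR adjusted p = 8.65e-07). For *FDC1* (chrIV:1512094-1513605), a decarboxylase of phenylacrylic acids, WT had 1087, 1084, 965 and 1061 and H3L126H 445, 436, 517 and 524 (log2 fold change -1.08, SE 0.08, edgeR adjusted p = 9.77e-07), also without overlap. The unnamed YDL241W (chrIV:20635-21006) had 454 ± 85.2 in WT, 223 ± 17.8 in H3L126M and 189 ± 26.5 in H3L126H (log2 -1.0 and -1.21, adjusted p = 0.000385 and 3.83e-05). YGR290W, which has no RefSeq gene and is named after its values were seen, had 19.6, 30.7, 13.0 and 21.9 in WT and 16.3, 6.31, 7.08 and 2.63 in H3L126H (log2 -1.29, adjusted p = 0.0318), and the groups overlapped. In YPEG, H3L126H had 3 falls of that size. YHR214W (8.88% unique) went from 334, 309, 295 and 223 in WT to 122, 118, 102 and 153 (log2 -1.23, adjusted p = 0.000118), YJL218W fell by 1.05 on the log2 scale (adjusted p = 0.00145), and YHR213W, with no unique window and at most 18 raw counts in either group, by 1.27 (adjusted p = 0.0082). The call of YHR213W was lost without WT replicates 3 and 4 (-1.07, adjusted p = 0.0888). YHR214W rose in H3L126M in the same medium (0.71, adjusted p = 0.00275).

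The *COS* family had 11 members among the outermost ORFs, all of them tested. In YPD 4 rose and 1 fell in H3L126M and 3 rose and 3 fell in H3L126H, and in YPEG 6 rose and none fell in each mutant. The shares higher were 36.4% and 27.3% in YPD, beside 7.83% and 24.5% of all tested ORFs, and 54.5% in each mutant in YPEG, beside 17.1% and 18.7%, and the share lower in H3L126H in YPD was 27.3%, beside 20.1%. *COS8* (82.6% unique) had 505, 509, 385 and 331 normalized counts in WT, 779.7, 878, 765 and 733 in H3L126M and 637, 664, 612 and 578 in H3L126H in YPD. Both mutants lay above WT (0.90 and 0.57 on the log2 scale, adjusted p = 0.000371 and 0.00328). Falls were called for *COS10* (100% unique) in both mutants in YPD (-0.39 and -0.54) and for *COS5* and *COS7*, which share sequence, in H3L126H (-0.55 and -0.68). *COS2* rose in H3L126M in YPD and YPEG (0.59 and 0.61) and its identical copy *COS3* did not pass the test (0.47 and 0.22). The sum of both went from 124 ± 15.4 to 175 ± 30.9 in YPD, where the libraries overlapped, and from 169.7 ± 13.4 to 223 ± 16.2 in YPEG, where they did not.

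Of the flocculins, *FLO10* (87.2% unique) had 122 ± 30.4, 189 ± 13.8 and 195 ± 29.7 normalized counts in WT, H3L126M and H3L126H in YPD and rose in both mutants in both media (log2 0.66 and 0.73 in YPD, 0.51 and 0.59 in YPEG). *FLO9* (36.6% unique) rose in 3 of these comparisons, and its value in H3L126H in YPEG was 0.26 (adjusted p = 0.0672). Among 9 genes for maltose, isomaltose and related sugars, 7 were tested. The maltase gene *MAL32* rose in H3L126M in both media (0.75 and 0.42) and in H3L126H in YPD (0.59), while its near copy *MAL12* had 0.37, 0.39 and 0.06 in the same order and was not called. The sum of both overlapped WT in each mutant and medium. The permease gene *MAL31* rose in YPEG by 0.58 in H3L126M and 0.87 in H3L126H and was not called in YPD (0.25 and -0.26). The difference between media was called for H3L126H (1.18, adjusted p = 0.0045) and not for H3L126M (0.34, adjusted p = 0.356). The isomaltase copies *IMA3* and *IMA4* were too low to test.

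The group of sugar transporters and polyol enzymes held 7 ORFs, of which 4 were tested in YPD and 6 in YPEG. *HXT9* (38% unique), a hexose transporter gene, rose in YPD by 1.02 in H3L126M and 1.08 in H3L126H, *HXT17* fell in H3L126H in YPD (-0.51), and *HXK1* fell in H3L126H in YPEG (-0.90, adjusted p = 0.00974). Of 14 transporter genes 12 were tested. *PCA1*, a P-type ATPase gene for cadmium export on chromosome II, rose in H3L126H only, by 0.76 in YPD and 1.02 in YPEG, and differed between the mutants (-0.72 and -0.93 for H3L126M minus H3L126H, adjusted p = 3.20e-05 and 3.42e-05). Chromosome II is among those that were higher as a whole in H3L126H. *PUG1*, for a transporter of protoporphyrin and heme, rose in H3L126M in YPEG from 108 ± 36.6 to 240.2 ± 102 (log2 1.16, adjusted p = 0.00709), although the libraries overlapped. The glutathione exchanger gene *GEX2* rose in YPD in both mutants (0.69 and 0.71), and *GEX1* and *VBA3*, next to *HML*, were too low to test.

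At the silent mating locus *HML*, *HMLALPHA1* had no count in any library and *HMLALPHA2* had group means of at most 2.52 normalized counts. Neither has a unique window. *SIR1*, which encodes a silencing protein of the mating loci, had 375 ± 5.52 in WT and 276 ± 16.3 in H3L126M in YPEG (log2 -0.44, adjusted p = 0.00381) and passed the test in no other comparison of a mutant with WT. Of the genes for arsenic resistance, *ARR1*, *ARR2* and *ARR3* on chromosome XVI, all 3 rose in H3L126H in YPEG (0.41, 1.0 and 0.50). *ARR3* also rose in H3L126M (0.61), and none was called in YPD. Chromosome XVI is among those that were higher as a whole in H3L126H, and the rises of these genes there were not separated from that shift. The cyanamide hydratase copies *DDI2* and *DDI3* summed to 39.0 ± 5.94 in WT and 69.8 ± 4.19 in H3L126H in YPD, and to 73.7 ± 16.8 in WT and 115 ± 9.59 in H3L126M in YPEG, both without overlap. The libraries of the other mutant overlapped WT in each medium. The sums of *VTH1* and *VTH2*, homologs of a vacuolar sorting receptor, and of the fluoride exporters *FEX1* and *FEX2* overlapped WT in each mutant and medium.

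Between the media, WT cells had 75 of 170 tested outermost ORFs higher and 32 lower in YPEG than in YPD (44.1% and 18.8%, beside 34.3% and 33.2% of all tested ORFs). 48 rose and 10 fell at least 2-fold, and the shares of all tested ORFs at that size are not set beside these counts. Called or not, the tested outermost ORFs had log2 fold changes from -1.14 to 2.03 (5th to 95th percentile), beside -1.28 to 1.90 for all tested ORFs. The median was 0.39, that of places 9 to 16 0.29 and that of all tested ORFs 0.019. *SEO1* (chrI:7235-9016, minus strand), which encodes a putative permease, had 30.5, 43.3, 39.95 and 35.5 normalized counts in YPD and 781, 956, 697 and 539.6 in YPEG. The media were far apart (log2 fold change 4.30, SE 0.22, edgeR adjusted p = 1.64e-14). *MAL12* had 59.8, 58.1, 46.4 and 44.9 and 432, 346, 253 and 185 and likewise did not overlap (log2 fold change 2.52, SE 0.25, edgeR adjusted p = 4.36e-09). *COS4* (27.7% unique) had 0, 3, 8 and 0 raw counts in YPD and 11, 8, 19 and 28 in YPEG, a log2 fold change of 2.51 (adjusted p = 0.0015) that became 3.89 without WT replicate 3 in YPD and 1.92 (adjusted p = 0.0505, not called) without WT replicates 3 and 4 in YPEG. *HSP33* had 1, 0, 2 and 2 and 29, 18, 5 and 19 raw counts and was called higher (adjusted p = 0.000142), and no fold is given at so few counts. The limit of the filter given above applies to *COS4* and *HSP33*, so their calls are not support for a direction.

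The largest falls in YPEG were those of *IRC7*, *COS12*, *DLD3* and YCR100C. *IRC7* had 1978, 2004, 1829 and 1767 normalized counts in YPD and 343, 288.5, 224 and 180.2 in YPEG (log2 fold change -2.89, SE 0.14, edgeR adjusted p = 5.35e-15). *DLD3* had 3538, 4005, 3989 and 3845 and 961, 919, 658 and 665 (log2 fold change -2.28, SE 0.14, edgeR adjusted p = 5.17e-13). In both, all YPEG libraries were lower. *COS12*, whose values are given above, fell (log2 fold change -2.32, SE 0.25, edgeR adjusted p = 1.52e-08). YCR100C (chrIII:301271-302221) went from 135 ± 13.5 to 32.6 ± 2.35 (log2 -2.05, adjusted p = 1.66e-09). Of 7 tested genes for maltose and related sugars 5 were higher in YPEG and none lower, and of 6 tested genes for hexoses and polyols also 5 and none, beside 34.3% higher and 33.2% lower of all tested ORFs. Both groups hold copies that share most of their sequence, such as *MAL12* and *MAL32* or *SOR1* and *SOR2*. These counts can therefore hold the same reads more than once. The yapsin protease genes *YPS5* and *YPS6* rose by 1.22 and 2.03. Of the ORFs in telomeric regions 11 of 27 rose (40.7%, near the 34.3% of all tested ORFs) and none fell.

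The mutants were also set against each other. In YPD 27 of 159 outermost ORFs were higher and 25 lower in H3L126M than in H3L126H (17% and 15.7%, beside 16.2% and 19.4% of all tested ORFs). The total of 52 was 34 without H3L126H replicate 4. In YPEG 21 of 166 were higher and 29 lower (12.7% and 17.5%, beside 19.4% and 21.2%), and 29 and 23 with chromosome medians removed.

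The difference of a strain effect between the media was tested with an interaction term. For H3L126M 14 of 170 outermost ORFs had a more positive effect in YPEG and 10 a more negative one (8.24% and 5.88%, beside 11.1% and 13.6% of all tested ORFs). For H3L126H the counts were 23 and 12 (13.5% and 7.06%, beside 10.1% and 9.27%). *SEO1* had a mean of 37.3 ± 5.56, 72.0 ± 6.11 and 76.5 ± 13.9 normalized counts in WT, H3L126M and H3L126H in YPD and 743 ± 173, 621 ± 159 and 436 ± 82.6 in YPEG. It rose in both mutants in YPD (0.98 and 1.08) and fell in H3L126H in YPEG (-0.77), and its effects differed between media by -1.23 in H3L126M and -1.80 in H3L126H (adjusted p = 0.00455 and 0.000356). *SRY1*, which encodes 3-hydroxyaspartate dehydratase and was picked after its values were seen, had higher values in the mutants in YPEG only. Its libraries had 680.0, 768, 391.95 and 286 in WT, 338, 323, 475 and 417 in H3L126M and 263, 293, 254 and 239 in H3L126H in YPD, and 156, 129.6, 115 and 138, 339, 312, 315 and 319 and 319.8, 361, 331 and 291 in YPEG. In YPEG every mutant library was above WT, while in YPD WT was spread widely and H3L126H was called lower (-0.98, adjusted p = 0.00842). The interaction test called both mutants (1.69 in H3L126M and 2.30 in H3L126H for the difference between media, adjusted p = 0.000371 and 2.35e-05). The unnamed YNR071C, also picked in this way, rose by 0.92 and 0.78 in YPD and 1.06 and 1.19 in YPEG in H3L126M and H3L126H, and the interaction test called no difference between media (0.14, SE 0.31, adjusted p = 0.762 and 0.46, SE 0.32, adjusted p = 0.318).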

How the data were processed

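The authors aligned stranded poly(A) mRNA reads with HISAT2 to sacCer3 and deposited raw counts per ORF from featureCounts. The strand and multi-mapping settings of the count and the tool versions are not given in the sources used here. The authors' DESeq2-normalized table was not used.

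Raw counts that passed the edgeR filter (minimum count 10) entered its quasi-likelihood test (edgeR 4.0.16) with TMM scaling, on the 12 libraries of a medium or, for media and interactions, on all 24. Benjamini-Hochberg adjustment ran over all tested ORFs of a comparison, and calls were made at 0.05. Normalized counts are TMM-scaled counts. The study calls the libraries of a group replicate experiments, and p-values measure only the spread between them. No pair of replicates agreed within sampling noise. Alternatives were DESeq2 (version 1.42.0), no filter, chromosome medians removed, the replicate block and leaving libraries out. The fit was tested on simulated data.

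ORFs were named by rule: per comparison with WT or between media, the 4 largest rises and falls among called ORFs of at least 2-fold with a mean of at least 10 counts and no overlap, plus family members. The ORFs, lists and rules were chosen with earlier results of these data known. R 4.3.3 and Python with pandas were used.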

Additional observations from a re-analysis of the deposited data

Results flagged for a closer look

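Of 138 groups of 4 libraries examined for the 23 ORFs named by rule, 4 had a library far from the others. Chance gives about 1 in 20 groups. WT replicate 3 in YPD had 14.0 normalized counts of YOL162W against 4.17 to 5.69 in the others. WT replicate 2 in YPD had 4.55 of *FDH1* against 6.26 to 6.53, and 15.9 of YHR213W against 3.24 to 4.17. All the WT cases lie at few counts, where sampling noise and an outlying library were not told apart. H3L126M replicate 3 in YPEG had 57.0 of *ERR3* against 78.3 to 81.2.

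The strain effect differed between the media, by the interaction term of edgeR, for 8 of the named ORFs in 12 cases. In H3L126M the effect in YPEG minus that in YPD (log2) was 0.98 for *SAM3* (adjusted p = 0.00135), 1.03 for YDL241W (0.0213), 0.43 for *FDC1* (0.0248), 1.34 for *COS12* (0.00418) and -1.23 for *SEO1* (0.00455). In H3L126H it was 0.72 for *SAM3* (adjusted p = 0.0127), -2.58 for *FDH1* (5.04e-05), 1.42 for *IRC7* (2.39e-05), 0.76 for *FDC1* (0.000872), 1.55 for *COS12* (0.0024), -1.80 for *SEO1* (0.000356) and 1.27 for YCR100C (0.00245).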

How the results depend on the processing

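Totals of called outermost ORFs, higher and lower together, stayed within 1.5 times under each alternative run, except for those between the mutants in YPD, which numbered 34 to 58 when a library was left out. Shares of all tested ORFs called under the alternatives are not set beside the counts in this section. With chromosome medians removed, the calls between the mutants in YPEG numbered 52 and turned from mostly lower to mostly higher in H3L126M. By direction some counts moved further, over all alternatives from 9 lower to 5 to 16 in H3L126M in YPD, from 56 higher to 36 to 66 and from 7 lower to 4 to 9 in H3L126M in YPEG, from 11 lower to 6 to 13 in H3L126H in YPEG, from 25 lower to 15 to 27 between the mutants in YPD and from 23 higher to 13 to 26 for the interaction of H3L126H. Leaving out each library gave 34 to 45 calls for H3L126M and 62 to 77 for H3L126H in YPD, 49 to 72 and 59 to 80 in YPEG, 100 to 110 between the media in WT, 43 to 57 between the mutants in YPEG, and 20 to 33 and 25 to 37 for the interactions of H3L126M and H3L126H. The correlation of deviations between same-numbered libraries ran from -0.327 to 0.271. Libraries with different numbers were not correlated, so whether the numbers pair the samples was not settled. With the replicate block the calls were 33, 67, 66 and 78 in the 4 comparisons with WT and 104 between media, all within 1.5 times. Under the block YMR321C in H3L126M in YPD was not called (adjusted p = 0.0571).

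The spread between replicates was taken over the libraries of the mutant, or of WT in YPEG for the media. It is the SD of the median log2 difference of each from the mean of the reference group. Differences among the reference libraries do not enter it. The median log2 fold change moved by more than this spread in H3L126H in YPD with DESeq2 (0.36), with no filter (0.37), with chromosome medians removed (0.23) and without WT replicates 1 and 2 (0.38). It moved in H3L126M in YPD without WT replicates 1 and 2 (0.26), and between the media with DESeq2 (0.31), with no filter (0.32), without WT YPD replicates 1 and 2 (0.48) or 3 and 4 (0.47), and without WT YPEG replicates 1 and 2 (0.33) or 3 and 4 (0.45). In YPEG it moved without WT replicates 3 and 4 in H3L126M (0.22) and H3L126H (0.28), and without replicates 1 and 2 in H3L126H (0.39). Leaving out each library gave 0.18 to 0.28 and 0.29 to 0.33 in YPD, 0.23 to 0.35 and 0.32 to 0.36 in YPEG, and 0.35 to 0.45 between media. Of these refits, 1 in H3L126M in YPD, 1 in H3L126M in YPEG and 2 between media moved by more than the spread. The cause was not tested. Of 603 refits of 31 named values, none changed direction and 7 were no longer called, 5 of YMR321C in H3L126M in YPD and 1 each of YHR213W in H3L126H in YPEG and *COS4* between media. Leaving out WT pairs was added after seeing the data. Depth limits the 62 ORFs with at most 10 counts.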
